A study of Homo sapiens with 12 samples.

Results

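The G2 and mitosis genes described here are 40 protein-coding genes whose products build the mitotic spindle, start mitosis and split the cell. They were taken by symbol from the gene expression matrix of the 4 lines, which had a row for all 40 of the listed symbols among 31654 symbol rows used. All 40 passed the filter on low values (1 FPKM or more in at least 3 of 12 libraries), as did 15449 genes in all. FPKM counts sequenced fragments per length of transcript and per depth of library, so that levels of different genes can be set side by side.

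The data are RNA sequencing of 4 human cell lines from glioblastoma, a malignant brain tumour, with 3 libraries per line. U251TR and U87TR are temozolomide-resistant sub-lines, made by exposing the parental lines U251MG and U87MG again and again to rising temozolomide, a DNA-alkylating drug. Each was set against its parent. There was 1 resistant line per parent, so each comparison describes that line. Whether a line's libraries are separate cultures, and whether the drug was present at harvest, is not given in the labels. The p-values therefore measure the spread between libraries, which may be technical. VIM, CD44 and EGFR were expressed in all 4 lines, while SOX2 and S100B, expressed in both U251 lines, lay at or near 0 in both U87 lines. Of the markers of other cell types, PTPRC, CD3E and CDH1 lay at 0.08 FPKM or less in every library, and CDH5, an endothelial cadherin, reached 11.95 FPKM in U251TR. The 3 U87TR libraries have codes numbered apart from the other 9, so any difference in handling cannot be told apart from resistance in the U87 pair.

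As cells leave S phase, transcripts of this programme accumulate under MuvB complexes that carry the MYB family factor MYBL2 and then FOXM1, and in resting cells a MuvB complex known as DREAM holds the same genes low. CDK1 bound to cyclin B drives entry into mitosis, kinetochores tie chromosomes to the spindle, the spindle checkpoint restrains the ubiquitin ligase APC/C until all are attached, and APC/C bound to CDC20 then releases the chromosomes. MKI67 and TOP2A are read widely in glioma as marks of proliferation. In bulk RNA, more cells in G2 and mitosis and more of these transcripts per cell cannot be told apart.

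Many genes of this class carry 2 short promoter elements, the cell cycle homology region (CHR, letters TTTGAA), which MuvB complexes bind, and the CCAAT box, which NF-Y binds. Both were searched on both strands in the RefSeq promoters of assembly GRCh38.p14, from 250 bases before to 50 after each start. Promoters were matched for 35 of the 40 genes; AURKA, TTK, UBE2C, BIRC5 and TPX2 were not matched. TTTGAA stood in 24 of the 35 (68.6%), against 15.2% of all 34943 promoters of the same length, and CCAAT in 27 of the 35 (77.1%), against 34.6%. Both stood in 20 of the 35 (57.1%), against 5.92% of all promoters. Between 60 bases before and 50 after the start, TTTGAA stood in 21 of the 35 (60%), against 5.04%. The units differ, since for each member only the first listed promoter was taken, while all promoters were counted by position. Other starts of a member were not searched. A gene can thus enter the latter more than once, and they were not limited to genes tested here. The 6 stretches below run from 160 bases before to 20 after the start, 5′ to 3′ on the gene's strand, with each TTTGAA or its reverse complement TTCAAA, and each CCAAT or its reverse complement ATTGG, in capitals. They were chosen to show both elements together (CCNB2, CDCA8, CDC20, KIF4A), CCAAT without TTTGAA (NEK2) and neither (KIF2C). CCNB2 lies at chr15:59104986-59105165 on the plus strand, CDCA8 at chr1:37692356-37692535 on the plus strand, CDC20 at chr1:43358821-43359000 on the plus strand, KIF4A at chrX:70289944-70290123 on the plus strand, NEK2 at chr1:211675602-211675781 on the minus strand and KIF2C at chr1:44739677-44739856 on the plus strand. In CDCA8 the TTTGAA and an ATTGG share 1 base.
CCNB2: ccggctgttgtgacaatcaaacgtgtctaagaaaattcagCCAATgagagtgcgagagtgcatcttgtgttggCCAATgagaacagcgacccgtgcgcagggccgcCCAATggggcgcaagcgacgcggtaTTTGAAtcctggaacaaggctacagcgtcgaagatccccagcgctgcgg
CDCA8: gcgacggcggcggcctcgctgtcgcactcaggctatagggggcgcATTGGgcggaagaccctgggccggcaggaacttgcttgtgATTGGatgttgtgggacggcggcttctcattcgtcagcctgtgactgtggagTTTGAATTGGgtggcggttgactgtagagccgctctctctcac
CDC20: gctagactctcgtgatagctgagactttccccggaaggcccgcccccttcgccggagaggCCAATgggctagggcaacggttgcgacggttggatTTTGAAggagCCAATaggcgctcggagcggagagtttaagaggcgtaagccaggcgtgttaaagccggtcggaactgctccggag
KIF4A: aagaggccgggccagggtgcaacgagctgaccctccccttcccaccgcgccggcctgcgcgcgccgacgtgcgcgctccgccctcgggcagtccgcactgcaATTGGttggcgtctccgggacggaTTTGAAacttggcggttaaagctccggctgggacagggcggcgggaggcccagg
NEK2: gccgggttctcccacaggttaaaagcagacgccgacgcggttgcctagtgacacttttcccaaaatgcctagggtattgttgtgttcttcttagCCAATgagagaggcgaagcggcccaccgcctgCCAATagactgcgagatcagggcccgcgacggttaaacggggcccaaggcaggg
KIF2C: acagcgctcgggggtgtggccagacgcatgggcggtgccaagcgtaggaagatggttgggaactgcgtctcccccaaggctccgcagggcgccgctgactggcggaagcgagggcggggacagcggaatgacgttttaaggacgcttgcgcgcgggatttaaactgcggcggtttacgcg

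Before the comparisons, 4 libraries need description. U251MG replicate 2 stood above both other U251MG replicates in 36 of the 40 genes, by a median of 0.36 on the log2 scale, while the median of all genes tested differed by 0.04. It also stood apart over all genes tested, with Spearman rank correlations of 0.977 and 0.978 with replicates 1 and 3, against 0.993 between those 2. It was also higher in the S phase genes, where its mean log2(FPKM + 1) over 31 genes was 5.07, against 4.37 and 4.40 in replicates 1 and 3. U251TR replicate 3 was low for many long transcripts. Among the 6 members with transcripts over 5000 nucleotides (nt) its median log2 deviation from the other replicates was -0.39, against -0.03 for the other members, and over all genes at 5 FPKM or more the same values were -0.07 (2486 genes) and 0.04 (6736 genes). U87TR replicate 3 had the same sign over all genes, at -0.13 and 0.03, and -0.07 and 0.02 for the members. Not all members followed length in U251TR replicate 3. There TTK (2966 nt) was at -0.59, HMMR (3016 nt) at -0.57 and MAD2L1 (5227 nt) at 0.11. U87MG replicate 3 lay below both other U87MG replicates in 38 of 40 genes, with a median log2 deviation of -0.14. Counts are with all libraries; those over the 40 genes and over the other lists in U251TR are given a second time without U251MG replicate 2 and U251TR replicate 3 together.

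**Figure D1:**
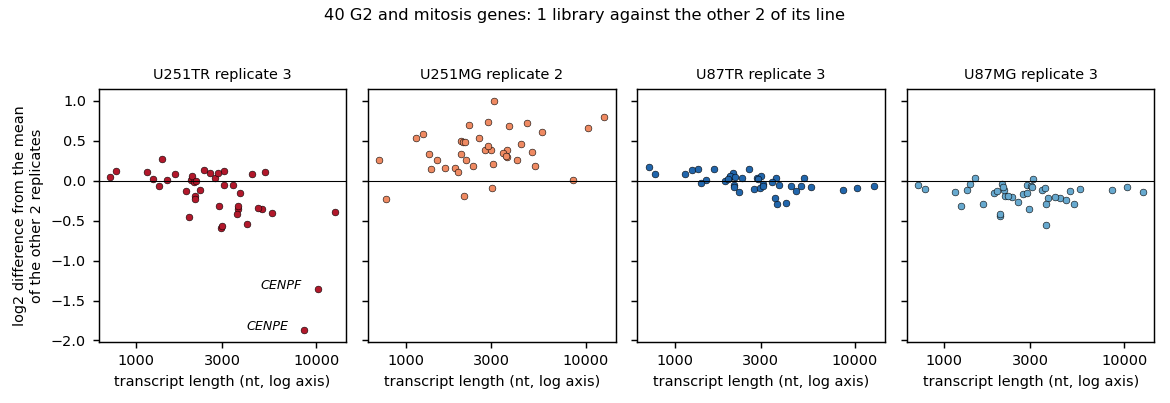
Deviation of each of the 40 genes in 1 library from the mean of the other 2 replicates (vertical axis, log2 units) against transcript length (horizontal axis, nucleotides, log scale), for U251TR replicate 3, U251MG replicate 2, U87TR replicate 3 and U87MG replicate 3. U251TR replicate 3 tends lower at long transcripts (Pearson r = -0.62 across the 40 genes, a description), whereas U251MG replicate 2 lies above 0 at nearly all lengths.

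The first question the design poses is how the U251 line that had become resistant differed from its parent. In U251TR, 33 of the 40 G2 and mitosis genes were higher than in U251MG, none was lower and 7 did not pass the test (limma on log2(FPKM + 1), Benjamini-Hochberg adjusted p of 0.05 or less over all 15449 genes). Of all genes tested, 53.2% passed, 33.6% as higher and 19.6% as lower. The median log2 fold change of the 40 was 0.74, that of all genes tested 0.10. The change was 1.5-fold or more in 26 genes and 2-fold or more in 11, with NEK2, a centrosome kinase, at 3.34-fold and SPC25, a kinetochore subunit, at 3.24-fold the largest. In 30 of the 40 genes all 3 U251TR libraries exceeded all 3 U251MG libraries, and in none was it the other way round, against 36.4% and 22.6% of all genes tested. Leaving out U251MG replicate 2 gave 34 higher, leaving out U251TR replicate 3 gave 36, and leaving out both, a choice made after the values were seen, gave 38 of 40. In none of these was a member lower. Of all genes tested, 31.2% were higher without U251TR replicate 3, and the shares without both libraries are given below with the other lists. U251MG replicate 2 stood above both others of its group in 36 of these genes. Leaving it out therefore raises most members' changes, and the larger counts are not separate evidence.

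The second comparison, U87TR against U87MG, gave few calls in the same genes. There 3 were higher (SPC25, NUSAP1 and NDC80), 1 was lower (CDCA8) and 36 did not pass, with a median log2 fold change of 0.01 and a range of -0.38 to 0.53. Of all genes tested, 27.8% passed, 10.6% as higher and 17.2% as lower in U87TR, so the members' shares do not stand above the background. The 95% interval of the change lay inside 2-fold either way for 39 of the 40 genes and inside 1.5-fold for 30, the one outside 2-fold being CENPE (log2 -1.08 to 0.57). Groups did not overlap in 11 genes with U87TR higher and 5 with U87TR lower, against 18.3% and 28.3% of all genes tested. Only the SPC25 call survived all 23 alternatives that applied other than a 1.5-fold minimum, with the other 3 lost under some of them. Some genes that did not pass gained a call instead. KIF11 did so in 6 alternatives, and MKI67, KIF20A and KIF2C in 3 each, KIF2C as lower and the others as higher. CCNB1, AURKA, BUB1B, UBE2C, AURKB, CENPE and CKAP2 did so in 1 or 2. Without U251MG replicate 2 and U251TR replicate 3 together, which enter this comparison through the pooled spread alone, 7 were higher and 5 lower, against 14.1% and 22.7% of all genes tested in that fit. The count of higher genes was 6 without U251MG replicate 2 and 1 without U87TR replicate 1, 2 or 3 or U87MG replicate 2 or 3. The count of lower genes was 5 without U251MG replicate 2, 4 without U87MG replicate 3, 2 without U251TR replicate 3, and 0 without U87TR replicate 1, 2 or 3 or U87MG replicate 1 or 2.

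The change in U251TR minus the change in U87TR was itself tested. It was above 0 in 28 of the 40 genes past the threshold and below 0 in none, with a median of 0.74 on the log2 scale, against 32.1% above and 15.4% below 0 among all genes tested (47.6% in all) and a median of 0.17. Without U251MG replicate 2 and U251TR replicate 3 together it was 37 of 40. Leaving out U251MG replicate 2, high in most of these genes, favours such a rise, so this count is not separate evidence. The largest differences were in NEK2 (1.56), AURKA (1.52), KIF2C (1.48), CDCA8 (1.41), BUB1 (1.34) and NUF2 (1.19).

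**Figure D2:**
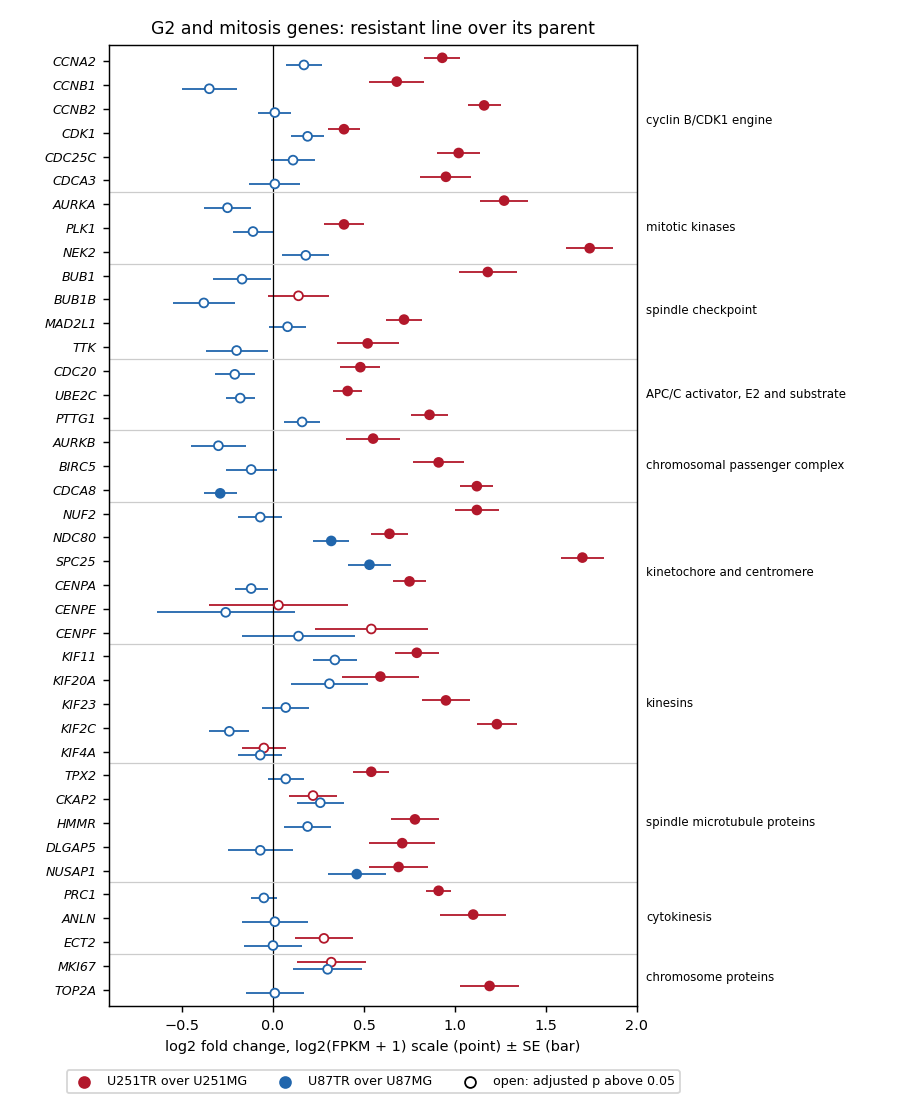
Log2 fold change of each of the 40 genes, grouped by role, in U251TR over U251MG and in U87TR over U87MG, on the log2(FPKM + 1) scale. Points are estimates, bars are 1 SE, and open points have an adjusted p above 0.05. The U251 points lie right of 0 for 39 of 40 genes and the U87 points lie between -0.38 and 0.53.

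All 6 genes of the cyclin B and CDK1 engine were higher in U251TR and none of the 6 passed in U87TR. CCNB1, cyclin B1, had 196, 239 and 217 FPKM in U251TR, against 118, 170.2 and 122 FPKM in U251MG. All U251TR libraries lay above all U251MG libraries, replicate 2 of U251MG being the nearest (log2 fold change 0.68, SE 0.15, adjusted p = 0.00274). The same gene had 128, 151 and 144 FPKM in U87TR, against 206, 194 and 147 FPKM in U87MG, where the groups overlapped through U87MG replicate 3 and the change did not pass (log2 fold change -0.35, SE 0.15, adjusted p = 0.114). CDK1, the kinase that cyclin B activates, had 150.2, 146 and 135 FPKM in U251TR, against 98.9, 118 and 112 FPKM in U251MG, with no overlap and a 1.31-fold change (log2 fold change 0.39, SE 0.09, adjusted p = 0.00232). In the other pair it had 75.7, 84.7 and 80.1 FPKM in U87TR, against 75.6, 69.6 and 65.5 FPKM in U87MG, where U87TR replicate 1 lay just above the highest U87MG library (log2 fold change 0.19, SE 0.09, adjusted p = 0.129). The test of the difference did not separate the CDK1 changes of the lines (0.20, SE 0.12, adjusted p = 0.198). CCNB2, cyclin B2, whose promoter above holds 3 CCAAT boxes ahead of its TTTGAA, averaged 111.9 ± 8.51 FPKM in U251TR, against 49.72 ± 5.4 FPKM in U251MG, a 2.23-fold rise, and 58.65 ± 5.1 FPKM in U87TR, against 58.04 ± 1.06 FPKM in U87MG (SD, n = 3). CDC25C, the phosphatase that activates CDK1, rose 2.02-fold, CDCA3, a ubiquitin ligase adaptor that acts on the CDK1 inhibitor WEE1, 1.93-fold, and CCNA2, cyclin A2, 1.91-fold in U251TR. Their log2 fold changes in U87TR were 0.11, 0.01 and 0.17.

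All 3 mitotic kinases were higher in U251TR. NEK2, which separates centrosomes at mitotic entry, had 40.7, 45.9 and 37.9 FPKM in U251TR, against 10.2, 14.9 and 10.5 FPKM in U251MG, groups far apart (log2 fold change 1.74, SE 0.13, adjusted p = 5.68e-07). In the U87 pair NEK2 had 25.6, 29.7 and 26.7 FPKM in U87TR, against 26.4, 23.1 and 22.6 FPKM in U87MG, and the groups overlapped (log2 fold change 0.18, SE 0.13, adjusted p = 0.359). AURKA, the Aurora kinase of centrosomes and spindle poles, had 83.1, 106 and 98.02 FPKM in U251TR, against 36.5, 45.6 and 35.6 FPKM in U251MG. No library of one group reached the other (log2 fold change 1.27, SE 0.13, adjusted p = 8.54e-06). In the U87 pair AURKA had 81.6, 87.02 and 87.6 FPKM in U87TR, against 114, 111 and 83.7 FPKM in U87MG, with U87MG replicate 3 within the U87TR range (log2 fold change -0.25, SE 0.13, adjusted p = 0.189). U251MG was thus the low line for AURKA, and the libraries of the other 3 lines overlapped. PLK1, the polo-like kinase that acts from entry to cytokinesis, had 53.9, 67.6 and 60.3 FPKM in U251TR, against 43.1, 51.7 and 42.9 FPKM in U251MG, a small separation without overlap (log2 fold change 0.39, SE 0.11, adjusted p = 0.00748). In the U87 pair it had 76.00, 85.97 and 83.6 FPKM in U87TR, against 94.8, 90.5 and 80.9 FPKM in U87MG, and the groups overlapped (log2 fold change -0.11, SE 0.11, adjusted p = 0.47).

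Of the 4 spindle checkpoint genes 3 were higher in U251TR and none passed in U87TR. BUB1, a checkpoint kinase at kinetochores, had 57.97, 62.1 and 54.00 FPKM in U251TR, against 20.1, 34.9 and 22.3 FPKM in U251MG. U251MG replicate 2 stood apart from its group here but below every U251TR library (log2 fold change 1.18, SE 0.16, adjusted p = 6.58e-05). BUB1 had 33.1, 34.9 and 32.7 FPKM in U87TR, against 41.8, 37.7 and 34.2 FPKM in U87MG, which overlapped (log2 fold change -0.17, SE 0.16, adjusted p = 0.492). MAD2L1, which holds CDC20 inactive, averaged 77.3 ± 3.9 FPKM in U251TR, against 46.53 ± 3.9 FPKM in U251MG, and 40.97 ± 3.11 FPKM in U87TR, against 38.72 ± 4.45 FPKM in U87MG (SD, n = 3), and passed in U251TR at 1.65-fold. TTK, the kinase that recruits the checkpoint to kinetochores, passed in U251TR at 1.43-fold (log2 0.52, adjusted p = 0.0233) with overlapping groups, and the call was lost without U251TR replicate 1 or 2 or U251MG replicate 1 or 3 (adjusted p up to 0.0932 over the alternatives). BUB1B, which codes for BubR1 of the same checkpoint complex, averaged 27.66 ± 3.98 FPKM in U251TR, against 25.12 ± 4.18 FPKM in U251MG (log2 0.14, adjusted p = 0.541).

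All 3 genes around APC/C were higher in U251TR. CDC20, its mitotic activator, had 112, 145 and 136 FPKM in U251TR, against 88.9, 101 and 90.7 FPKM in U251MG, with no overlap and a 1.39-fold change (log2 fold change 0.48, SE 0.11, adjusted p = 0.00376). In the U87 pair it had 96.9, 108 and 114 FPKM in U87TR, against 129.7, 133 and 107 FPKM in U87MG, where the difference ran the other way and did not pass (log2 fold change -0.21, SE 0.11, adjusted p = 0.197). The difference between the lines passed (0.69, SE 0.16, adjusted p = 0.00412). PTTG1, securin, which holds separase inactive until APC/C destroys it, averaged 250.8 ± 13.2 FPKM in U251TR, against 137.9 ± 15.8 FPKM in U251MG, and 246.2 ± 24.7 FPKM in U87TR, against 219.1 ± 5.71 FPKM in U87MG (SD, n = 3), with a 1.82-fold rise in U251TR. UBE2C, the ubiquitin-conjugating enzyme of APC/C, had the highest mean level of the 40 genes in every line and rose 1.33-fold in U251TR. PTTG2, a near-identical copy of PTTG1, was at 0.13 FPKM or less in every library.

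The 3 genes of the chromosomal passenger complex, which corrects faulty attachments and then moves to the midzone, were all higher in U251TR. CDCA8, borealin, had 36.2, 40.2 and 41.9 FPKM in U251TR, against 17.00, 19.2 and 16.5 FPKM in U251MG, 2.18-fold with wide separation (log2 fold change 1.12, SE 0.09, adjusted p = 8.58e-07). In U87TR it had the opposite sign, with 26.6, 28.3 and 28.2 FPKM in U87TR, against 36.6, 34.8 and 31.03 FPKM in U87MG and no overlap, and it was the only member that passed as lower there (log2 fold change -0.29, SE 0.09, adjusted p = 0.0313). That call did not hold under 9 alternatives, leaving out any U87TR library or U87MG replicate 1 or 2 among them (adjusted p up to 0.155), but the difference between the lines did (1.41, SE 0.13, adjusted p = 3.92e-06, at most 2.84e-05 over the alternatives). BIRC5, survivin, rose 1.88-fold and AURKB, the kinase of the complex, 1.46-fold in U251TR, with log2 fold changes of -0.12 and -0.30 in U87TR that did not pass.

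Among kinetochore and centromere genes, 4 of 6 were higher in U251TR and 2 of 6 in U87TR. SPC25, NDC80 and NUF2 code for 3 of the subunits of the NDC80 complex, the rod that grips microtubule ends. SPC25 had 44.7, 43.5 and 41.95 FPKM in U251TR, against 10.3, 14.9 and 13.3 FPKM in U251MG, with no overlap (log2 fold change 1.70, SE 0.12, adjusted p = 2.25e-07). It had 22.9, 25.7 and 26.99 FPKM in U87TR, against 16.96, 18.3 and 16.3 FPKM in U87MG, also without overlap, at 1.44-fold (log2 fold change 0.53, SE 0.12, adjusted p = 0.00564). The rise was larger in the U251 pair, with a log2 difference of 1.17 (SE 0.17, adjusted p = 0.000126). NDC80 had 60.4, 52.02 and 47.6 FPKM in U251TR, against 35.1, 30.9 and 35.5 FPKM in U251MG, no overlap (log2 fold change 0.64, SE 0.10, adjusted p = 0.00015). In the other pair it had 31.6, 33.4 and 30.7 FPKM in U87TR, against 27.3, 24.6 and 24.4 FPKM in U87MG, again no overlap (log2 fold change 0.32, SE 0.10, adjusted p = 0.0291). That U87 call was lost in 6 alternatives, leaving out any U87TR library or U87MG replicate 2 or 3 among them (adjusted p up to 0.101), and the difference between the lines did not pass (0.32, adjusted p = 0.0711). NUF2 had 51.9, 47.96 and 36.2 FPKM in U251TR, against 18.1, 21.2 and 21.1 FPKM in U251MG, the lowest of the U251TR libraries being replicate 3 (log2 fold change 1.12, SE 0.12, adjusted p = 8.97e-06). It had 21.8, 21.9 and 22.2 FPKM in U87TR, against 23.4, 24.2 and 21.7 FPKM in U87MG, which overlapped (log2 fold change -0.07, SE 0.12, adjusted p = 0.725). CENPA, the histone H3 variant of centromeres, rose 1.69-fold in U251TR. CENPE, a kinetochore motor, and CENPF, a large kinetochore protein, did not pass in U251TR. Both have long transcripts (8541 and 10290 nt) and both were named after their values were seen, since their calls turned on U251TR replicate 3. MKI67, with a longer transcript (12716 nt), deviated by -0.39 in that library, and the part of length was not tested. CENPE had 12.4, 12.7 and 2.69 FPKM in U251TR, against 8.05, 7.63 and 7.13 FPKM in U251MG, and CENPF had 70.4, 75.8 and 27.8 FPKM in U251TR, against 29.9, 49.6 and 32.02 FPKM in U251MG. Without U251TR replicate 3 the log2 fold change was 0.65 for CENPE (SE 0.10, adjusted p = 0.000242) and 0.99 for CENPF (SE 0.18, adjusted p = 0.000951).

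Of the 5 kinesins 4 were higher in U251TR and none passed in U87TR. KIF2C, which takes microtubules apart at centromeres and whose promoter window above holds neither element, had 70.5, 72.6 and 76.7 FPKM in U251TR, against 26.9, 37.6 and 28.4 FPKM in U251MG. The groups were well separated (log2 fold change 1.23, SE 0.11, adjusted p = 1.60e-06). It had 33.02, 35.3 and 34.8 FPKM in U87TR, against 42.02, 40.7 and 39.8 FPKM in U87MG, no overlap in the opposite direction, but the change did not pass (log2 fold change -0.24, SE 0.11, adjusted p = 0.113). That change passed as lower in 3 alternatives (adjusted p down to 0.00735). KIF23, a motor of the central spindle, rose 1.93-fold and KIF11, which pushes spindle poles apart, 1.73-fold in U251TR. In U87TR KIF11 did not pass (log2 0.34, adjusted p = 0.0623) but passed as higher in 6 alternatives (down to 0.00573). KIF20A, which carries the passenger complex to the midzone, passed at 1.51-fold (log2 0.59, adjusted p = 0.0338) with overlap through U251MG replicate 2 at 52.2 FPKM. Its log2 fold change was 0.93 without that library (adjusted p = 1.06e-05), and the call was lost without U251TR replicate 2 or 3 or U251MG replicate 1 or 3 (adjusted p up to 0.144). KIF4A, a motor on chromosome arms, was the only member with a log2 fold change below 0 in U251TR on the deposited values, -0.05 (95% interval -0.32 to 0.22, adjusted p = 0.785), and ran from -0.18 to 0.11 over the alternatives, above 0 as TPM. It averaged 22.36 ± 1.38 FPKM in U251TR, against 23.38 ± 4.76 FPKM in U251MG, and 20.68 ± 0.922 FPKM in U87TR, against 21.82 ± 2.02 FPKM in U87MG (SD, n = 3), and passed neither of these comparisons nor those between the lines. Its promoter above holds both elements. KIF4B, its near-identical copy, was at 0.02 FPKM or less.

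Of the 5 spindle microtubule proteins 4 were higher in U251TR and 1 in U87TR. NUSAP1, which bundles microtubules near chromosomes, had 215, 209.6 and 195 FPKM in U251TR, against 109, 177 and 109 FPKM in U251MG. U251MG replicate 2 lay between the rest of its group and U251TR (log2 fold change 0.69, SE 0.16, adjusted p = 0.00266). It had 107, 101 and 93.98 FPKM in U87TR, against 76.3, 75.3 and 66.4 FPKM in U87MG, no overlap (log2 fold change 0.46, SE 0.16, adjusted p = 0.0435), and that U87 call was lost in 12 alternatives, leaving out any U87TR, U87MG or U251TR library among them (adjusted p up to 0.125). HMMR, DLGAP5 and TPX2 rose 1.71-fold, 1.63-fold and 1.45-fold in U251TR; TPX2 activates AURKA on the spindle, and DLGAP5 stabilises the microtubule fibres at kinetochores. CKAP2, a microtubule stabiliser, had a log2 fold change of 0.22 in U251TR (adjusted p = 0.183, 0.0303 without U251TR replicate 3) and 0.26 in U87TR (adjusted p = 0.159). Among cytokinesis genes ANLN, anillin of the cleavage furrow, rose 2.15-fold and PRC1, which bundles the central spindle, 1.88-fold in U251TR, while ECT2, which activates the small GTPase of the contractile ring, stood at 0.28 (adjusted p = 0.16, 0.0200 without U251TR replicate 3). None of the 3 passed in U87TR.

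Of the 2 proliferation marks 1 passed in U251TR and none in U87TR. TOP2A, the topoisomerase that untangles chromosomes, had 193, 195 and 147 FPKM in U251TR, against 63.8, 102 and 69.8 FPKM in U251MG, no overlap (log2 fold change 1.19, SE 0.16, adjusted p = 4.94e-05). It had 68.8, 74.6 and 67.9 FPKM in U87TR, against 73.7, 69.3 and 66.7 FPKM in U87MG, which overlapped (log2 fold change 0.01, SE 0.16, adjusted p = 0.984). MKI67, which codes for Ki-67, the coat of mitotic chromosomes, had 54.5, 60.3 and 43.6 FPKM in U251TR, against 33.2, 60.9 and 36.01 FPKM in U251MG. Here U251MG replicate 2 lay above every U251TR library and the change did not pass (log2 fold change 0.32, SE 0.19, adjusted p = 0.173). Without that library it was 0.58 (SE 0.11, adjusted p = 0.00104), and without U251TR replicate 3 it was 0.45 (SE 0.20, adjusted p = 0.0907). In the U87 pair MKI67 had 54.9, 55.02 and 52.7 FPKM in U87TR, against 46.1, 44.5 and 41.00 FPKM in U87MG, which did not overlap and did not pass (log2 fold change 0.30, SE 0.19, adjusted p = 0.265). It passed as higher in 3 alternatives (adjusted p down to 0.00691). These were the fit on 6 libraries alone and the fits without U251MG replicate 2, alone or with U251TR replicate 3. The difference between the lines for MKI67 was 0.02 (SE 0.26, 95% interval -0.56 to 0.59), an interval too wide to say that they changed alike.

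**Figure D3:**
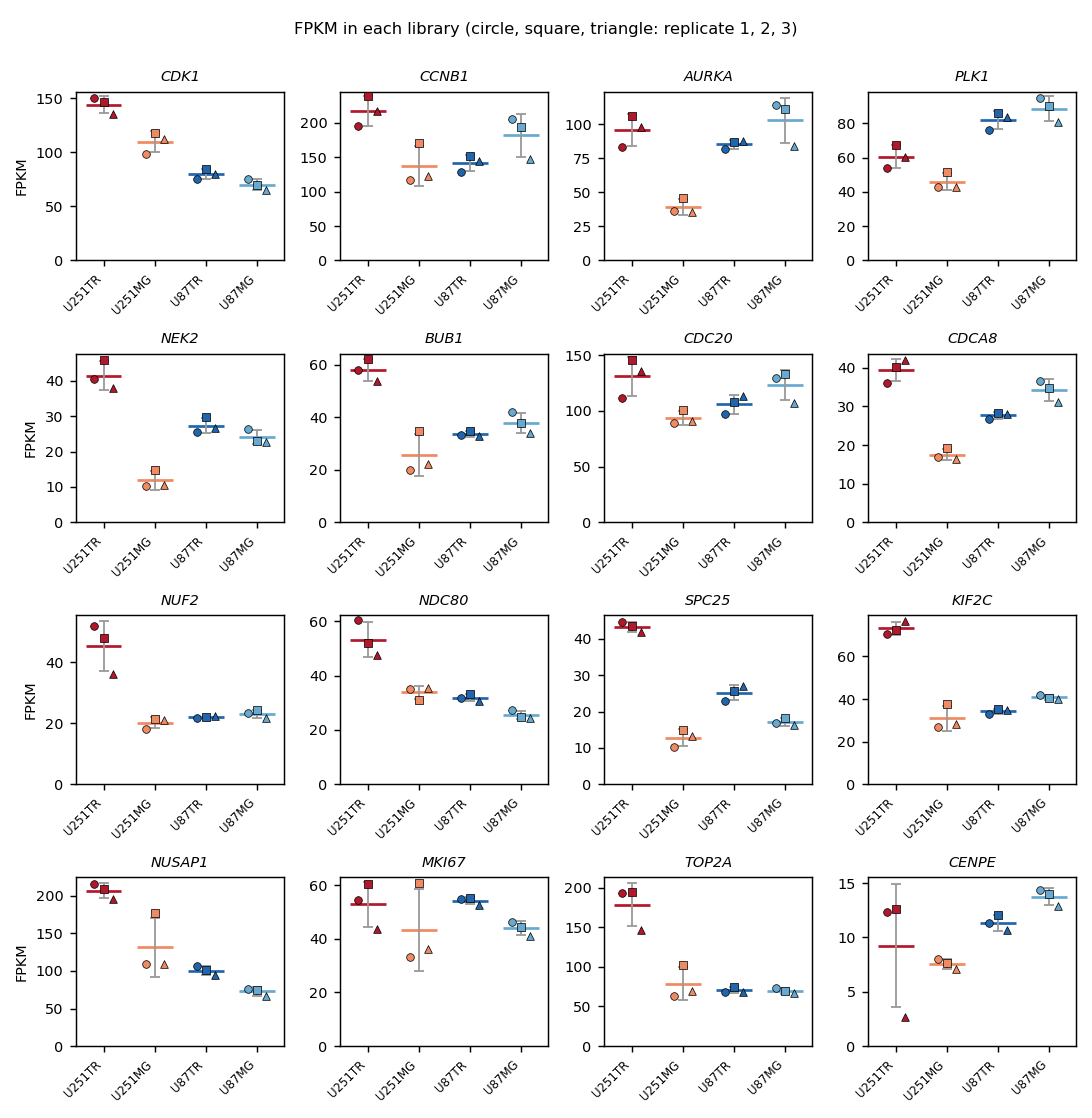
FPKM of 16 of the genes in each library (points; vertical axis in FPKM, starting at 0) for U251TR, U251MG, U87TR and U87MG. CCNB1, NEK2 and SPC25 show U251TR above U251MG without overlap, MKI67 shows U251MG replicate 2 above all 3 U251TR libraries, and CENPE shows U251TR replicate 3 at 2.69 FPKM.

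Setting the lines against each other, U87MG was higher than U251MG in 20 of the 40 genes and lower in 9 (all genes tested, 32.2% higher and 40.1% lower, 72.3% in all; median of the members 0.25, of all genes -0.09). All 3 mitotic kinases were higher in U87MG, AURKA the most (log2 fold change 1.36, SE 0.13, adjusted p = 1.60e-06), and NUSAP1 was the most reduced at -0.81 (SE 0.16, adjusted p = 0.000481). Without U251MG replicate 2 and U251TR replicate 3 the counts were 25 higher and 7 lower, a shift that leaving out a high U251MG library favours. Between the resistant lines U87TR was lower than U251TR in 26 genes and higher in 1, PLK1 (0.43, SE 0.11, adjusted p = 0.00266), with a median of -0.56, against 25.5% higher, 47.1% lower, 72.6% in all and a median of -0.27 among all genes tested. Without the same libraries 1 was higher and 27 were lower. These values depended on the scaling. With median-of-ratios factors the members' median was -0.27 (3 higher, 20 lower) and that of all genes -0.02. With quantile normalization they were -0.38 (1 higher, 23 lower) and -0.02, and as TPM -0.60 (1 higher, 27 lower) and -0.31. TTK (-1.38), CDC25C (-1.36) and TOP2A (-1.32) were the most reduced in U87TR, while AURKA (-0.16), CDCA3 (-0.05) and PTTG1 (-0.03) did not pass. These comparisons share libraries with those above and are not separate evidence. Summed over the 40 genes, the level was 3250, 3501 and 3163 FPKM in U251TR, against 1782, 2312 and 1866 FPKM in U251MG. It was 2239, 2441 and 2372 FPKM in U87TR, against 2528, 2440 and 2188 FPKM in U87MG. The U251TR sums thus stood above all 9 other libraries, and the U87 groups overlapped.

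**Figure D4:**
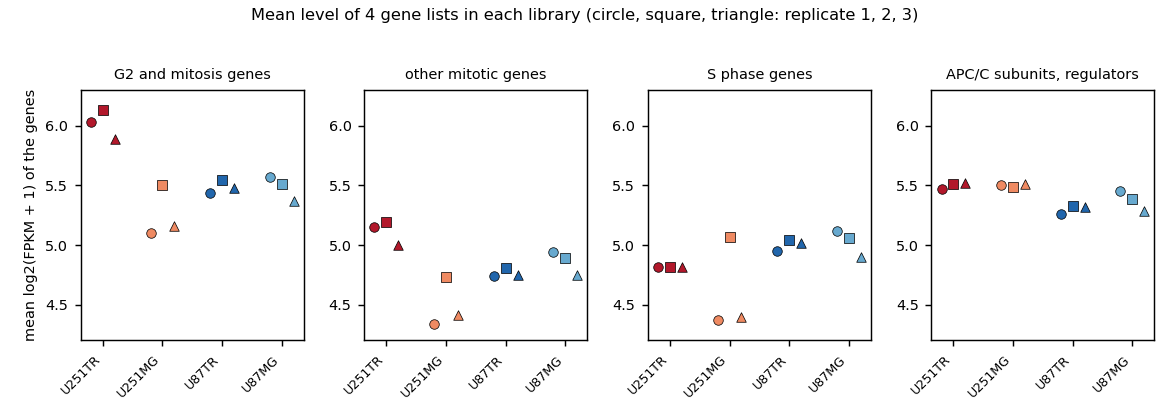
Mean log2(FPKM + 1) per library (vertical axis, log2 units, not from 0) over the 40 G2 and mitosis genes and over 3 other cell cycle lists, for the 4 lines. The 40 genes stand at 5.89 to 6.13 in U251TR, against 5.10 to 5.50 in U251MG, and at 5.44 to 5.55 in U87TR, against 5.37 to 5.57 in U87MG.

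Other cell cycle lists, none of which holds a member, were counted the same way and can be read against all genes tested, of which 33.6% were higher and 19.6% lower in U251TR, and 10.6% higher and 17.2% lower in U87TR. Without U251MG replicate 2 and U251TR replicate 3 the all-gene shares in U251TR were 35.8% and 19.9%. Of 46 other mitotic genes, 37 were higher and 1 lower in U251TR (median 0.65), or 40 and 2 without those 2 libraries, and 2 higher and 3 lower in U87TR (median -0.11). MELK, a kinase of dividing cells, averaged 120 ± 2.06 FPKM in U251TR, against 40.1 ± 2.81 FPKM in U251MG (SD, n = 3), 2.95-fold. The microtubule-binding SKA1 of the outer kinetochore was 2.26-fold higher in U251TR, whereas U87TR had a log2 fold change of -1.25 (adjusted p = 1.91e-06). KIF18A, a kinesin that damps chromosome movements, had a log2 fold change of -0.87 in U87TR (adjusted p = 0.00073) and ASPM, a spindle pole protein, one of 0.93 (adjusted p = 0.0276, up to 0.0815 when any 1 U87 library was left out).

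Of 31 S phase genes, 11 (35.5%) were higher and 4 (12.9%) lower in U251TR with a median of 0.26, shares near those of all genes. Their mean log2(FPKM + 1) was 4.82 in each U251TR library, against 4.37, 5.07 and 4.40 in U251MG, so replicate 2 lay above all U251TR libraries. Without that replicate and U251TR replicate 3 the counts were 17 higher and 2 lower, and the part of U251MG replicate 2 in the list was not otherwise tested. The lower count was 2 as TPM and 6 with median-of-ratios factors, and the calls of UHRF1 (-0.49, adjusted p = 0.0456) and CHAF1A (-0.44, adjusted p = 0.0263) were lost in 15 and 7 alternatives (up to 0.132 and 0.106). RRM2, the small subunit of ribonucleotide reductase, rose 2.73-fold and CDT1, a replication licensing factor, 2.34-fold, while MCM5, a subunit of the replicative helicase, fell to 7.25 ± 0.488 FPKM in U251TR, against 24.4 ± 13.1 FPKM in U251MG (SD, n = 3). U251MG replicate 2 was the highest of its group for all 3. In U87TR 3 were higher and 2 lower, among them MCM6 at 0.73 (adjusted p = 0.00519) and RRM1 at -0.97 (adjusted p = 0.00137); GINS4 at -1.03 (adjusted p = 0.0479) was lost in 17 alternatives (up to 0.131).

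Of 18 condensin and cohesin genes, 7 (38.9%) were higher and 2 (11.1%) lower in U251TR (median 0.21), near the all-gene shares, with 12 and 2 without U251MG replicate 2 and U251TR replicate 3, and 6 and 4 with median-of-ratios factors. The lower call of WAPAL, which releases cohesin, was lost in 16 alternatives (adjusted p up to 0.253), and the higher one of the condensin subunit NCAPD2 in 9 (up to 0.148). The largest changes were in the condensin subunit NCAPH2 at 2.31-fold and the cohesin subunit STAG2, which fell by 1.09 on the log2 scale (adjusted p = 0.00011). None was higher and 1 lower in U87TR, CDCA5, sororin, which fell by 1.36 (adjusted p = 1.77e-05) there and rose 1.53-fold in U251TR. Of 17 APC/C genes 2 were higher and 2 lower in U251TR (3 and 5 without those 2 libraries), with FZR1, the activator used at mitotic exit, falling by 0.54 (adjusted p = 5.56e-05). In U87TR none was higher and 2 lower, and ANAPC11, the ring-finger subunit, fell by 1.17 (adjusted p = 3.39e-06).

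Among 17 regulators of G2 entry, 8 were higher and 3 lower in U251TR (8 and 4 without U251MG replicate 2 and U251TR replicate 3, 4 and 3 with median-of-ratios factors), and 2 higher and none lower in U87TR. SFN, 14-3-3 sigma, had 14.3, 15.5 and 17.02 FPKM in U251TR, against 2.65, 4.11 and 2.75 FPKM in U251MG. CHEK2, a DNA damage checkpoint kinase, averaged 13.9 ± 1.65 FPKM in U251TR, against 4.88 ± 2.02 FPKM in U251MG (SD, n = 3). CDKN1A, the inhibitor p21, had 135, 109.9 and 148 FPKM in U251TR, against 57.03, 34.7 and 54.8 FPKM in U251MG. The U251 groups did not overlap in any of the 3. Of the 3 lower genes, the inhibitory kinase WEE1 had a change of -0.55 (adjusted p = 0.00138) and CDKN1B, the inhibitor p27, one of -0.49 (adjusted p = 0.000661). The other was CDC25B, which like CDC25C is a phosphatase that activates CDK1, at -0.43 (adjusted p = 0.00103). The 2 higher in U87TR were CDKN3, a phosphatase that acts on CDKs, at 1.68-fold, and SFN (log2 0.76, adjusted p = 0.00403, or 0.0747 with a pseudocount of 5), and both were higher in U251TR too.

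Of 22 genes for MuvB, MYB, FOXM1 and E2F regulators, 9 (40.9%) were higher and 3 (13.6%) lower in U251TR, and 2 (9.09%) higher and 5 (22.7%) lower in U87TR, shares near those of all genes. Without U251MG replicate 2 and U251TR replicate 3 the U251TR counts were 9 and 4. FOXM1 averaged 96.6 ± 5.6 FPKM in U251TR, against 52.9 ± 7.01 FPKM in U251MG (SD, n = 3), 1.82-fold, and 64.6 ± 1.34 FPKM in U87TR, against 70 ± 9.41 FPKM in U87MG (SD, n = 3), log2 -0.11 with an adjusted p of 0.529. E2F8, a repressor of the E2F family, rose 2.40-fold and LIN9, a MuvB subunit, 1.57-fold in U251TR. In U87TR MYBL2 rose 2.09-fold (adjusted p = 9.15e-07) and the activator E2F2 1.98-fold, while E2F7, a repressor paired with E2F8, had 0, 0.02 and 0.02 FPKM in U87TR, against 32.2, 28.2 and 24.4 FPKM in U87MG. The G2 and mitosis genes had a median change of 0.01 in that same pair, and a link between these regulators and the members was not tested. MYBL2 (log2 0.30, adjusted p = 0.00609) and E2F2 (0.62, adjusted p = 0.0178) passed as higher in U251TR too. Those 2 calls were lost in 1 and 4 alternatives.

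**Figure D5:**
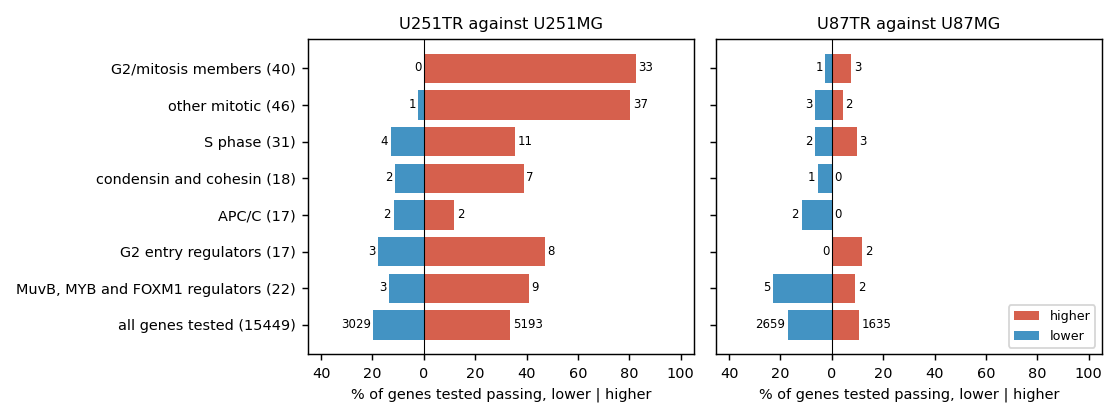
Share of each list's genes (horizontal axis, percent) that passed the test as higher or lower, in U251TR over U251MG and in U87TR over U87MG, with counts beside the bars. The 40 members (33 higher, none lower) and the 46 other mitotic genes (37 higher, 1 lower) can be read against the all-gene shares of 33.6% and 19.6% in U251TR, and in U87TR 3 of the 40 were higher and 1 lower.

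The U251TR calls were set beside the promoter elements. Of the 24 genes with TTTGAA 19 were higher in U251TR (median log2 fold change 0.73), and of the 11 without it 9 were (median 0.86). With CCAAT it was 23 of 27 (median 0.75), and without it 5 of 8 (median 0.83). No test was made of these splits, and a missing match says only that these letters are not in the window of the promoter taken.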

How the data were processed

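The authors deposited 1 table of FPKM values by gene symbol for 12 libraries, made with STAR 2.5.2b and RSEM 1.2.31, per the submitters' processing notes. The unit is stated by no header or label and was inferred from the values. The notes name the build hg19 and the series' design text names hg38. Per the labels, libraries came from a TruSeq kit and were read as 150 bp pairs. No counts are held, so depth is unknown and no counting interval is given; the values summed to between 695282 and 785754 FPKM per library. Of 31681 symbol rows, 27 that a spreadsheet had turned into dates were left out.

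Genes that reached 1 FPKM in 3 or more libraries entered limma 3.58.1 (R 4.3.3) on log2(FPKM + 1), group means over all 12 libraries, variance trend and robust moderation, two-sided, Benjamini-Hochberg adjusted over 15449 genes, threshold 0.05. Fold changes are on that scale, which understates those of low genes. The procedure was tested on simulated data. Transcript lengths are those of the Ensembl canonical transcripts in GENCODE 44, and promoter sequences are from RefSeq.

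Every member is accounted for. Values in all libraries are given for MKI67, CDK1, CCNB1, PLK1, AURKA and CDC20, and for the members that changed most in U251TR, in U87TR or between the lines (6 highest rises, 4 largest falls, 6 largest differences among those past the threshold). For the other lists at most 3 changed genes are named per comparison by size of change. UHRF1, CHAF1A, WAPAL, WEE1, CDKN1B and CDC25B were named after their values were seen. SKA1, CDCA5, CDKN3, MYBL2 and E2F2, named for U87TR, are also described in U251TR. CKS1B and RBL1 were not used. The members, roles and lists were chosen with earlier results of these data known.

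The labels do not say whether equal replicate numbers mark paired libraries, and the main fit used no pairing. Correlations of same-numbered deviations ran from -0.058 to 0.116, which cannot exclude a pairing. Alternatives were other pseudocounts (0.1 and 5), filters (none and 5 FPKM), scalings (TPM, median-of-ratios factors, quantile normalization), a fit on 6 libraries alone, no trend or robust moderation, a replicate block, a minimum of 1.5-fold, and leaving out each library.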

Additional observations from a re-analysis of the deposited data

Results flagged for a closer look

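The resistance change differed between the U251 and the U87 pair in 28 of the 40 G2 and mitosis genes, by limma's test of the difference itself (adjusted p of 0.05 or less over all genes tested), and in each of the 28 it was larger in U251TR. Of all genes tested, 32.1% passed in that direction. In log2 units the differences were largest in NEK2 (1.56), AURKA (1.52), KIF2C (1.48), CDCA8 (1.41) and BUB1 (1.34). They were 1.19 in NUF2, 1.18 in TOP2A, 1.17 in SPC25, 1.15 in CCNB2, 1.09 in ANLN and 1.03 in both CCNB1 and BIRC5. Smaller differences were found in PRC1 (0.96), CDCA3 (0.93), CDC25C (0.91), KIF23 (0.88), CENPA (0.87), AURKB (0.85), DLGAP5 (0.78), CCNA2 (0.76), TTK (0.72), PTTG1 (0.70), CDC20 (0.69), MAD2L1 (0.64), UBE2C (0.60), HMMR (0.58), PLK1 (0.51) and TPX2 (0.46). That of TTK was lost in 11 alternatives (adjusted p up to 0.0758), among them without U251TR replicate 1 or 2, U251MG replicate 1 or 3, U87TR replicate 1 or 3, or U87MG replicate 1 or 2. That of HMMR was lost in 7 (up to 0.0875), among them without U251TR replicate 1 or 2, U251MG replicate 1 or U87MG replicate 1. That of DLGAP5 was lost in 8 (up to 0.0609), among them without U251TR replicate 2, U251MG replicate 1 or 3, U87TR replicate 1 or U87MG replicate 1. Those of PLK1 and TPX2 were lost with median-of-ratios factors (adjusted p = 0.0802 and 0.0846). The U87TR libraries carry codes of another number block, so handling cannot be told apart from the U87 change that enters each difference.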

How the results depend on the processing

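Of 120 member results recomputed under the alternatives, 35 lost or gained a call in at least 1 of them other than the 1.5-fold minimum, and no called result reversed. In U251TR the count of 33 higher members lay between 31 and 36 when 1 library was left out and was 33 with the replicate block, which changed no call there. The median of all genes in U251TR was 0.096 as deposited, 0.197 as TPM, 0.000 with median-of-ratios factors and -0.013 with quantile normalization; the members' median under those 3 scalings was 0.85, 0.60 and 0.73, with 33, 31 and 32 higher. The difference between the lines held 25 to 32 members when 1 library was left out, 23 with median-of-ratios factors and 30 with the replicate block. In U87TR the 3 higher members became 1 with no filter, 6 in the fit on 6 libraries alone, 7 without U251MG replicate 2 and U251TR replicate 3, 0 at 1.5-fold, and 1 to 6 when 1 library was left out. The 1 lower member became 0 with no filter, as TPM, with median-of-ratios factors, with quantile normalization and at 1.5-fold. It became 2 in the fit on 6 libraries alone and with the replicate block (3 higher), 5 without those 2 libraries, and 0 to 5 when 1 library was left out. At 1.5-fold, genes called of all tested were 4793 of 8222 in U251TR and 2046 of 4294 in U87TR, members higher and lower in U87MG against U251MG were 9 and 4 (20 and 9 before), and none was higher in U87TR than in U251TR, where median-of-ratios factors gave 3. The cause was not tested, except that a 1.5-fold minimum leaves fewer genes by construction. Without counts, depth limits cannot be given.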
